A study of Mus musculus with 12 samples.

Results

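The comparison described here sets GSK126 alone against bone morphogenetic protein 2 (BMP2) alone after 6 days of osteogenic culture. It rests on 3 of the 12 RNA-seq libraries of the study: 1 library of cells given 5 µM GSK126, 1 of cells given 10 ng/ml BMP2 and 1 of cells given 50 ng/ml BMP2. All 3 come from MC3T3 sc4 cells, an established mouse calvarial pre-osteoblast line labelled as C57BL/6 and used at passage 12. Every library of the study, the vehicle controls included, was grown in osteogenic medium with ascorbic acid and β-glycerol phosphate, and medium and agents were renewed once, after 3 days. The other libraries of day 6 are a vehicle control and 2 combinations, each of GSK126 with 1 of the BMP2 doses, and the same 6 conditions were also sequenced on day 1. Each condition has 1 library, so the comparison is of 1 library against 2 and carries no replicate check. A single cell line was used, and the labels do not say whether libraries came from separate cultures.

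GSK126 is a small molecule that inhibits EZH2, the catalytic subunit of Polycomb repressive complex 2 (PRC2). PRC2 places methyl groups on lysine 27 of histone H3, a mark of silenced developmental genes, and its inhibition in pre-osteoblasts is known to favour osteogenic gene expression. BMP2 is a secreted ligand that binds paired serine/threonine kinase receptors, and these phosphorylate SMAD proteins that enter the nucleus and switch on target genes such as the Id genes, Smad6 and the osteoblast regulators Dlx5 and Sp7. The 2 agents thus enter the osteoblast programme at different points, a chromatin enzyme in 1 case and a receptor in the other, and the question addressed is which transcripts separate them.

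Library depth ranged from 74301112 to 113744802 counts over the 12 libraries, and was 91632820 with GSK126, 80991486 with 10 ng/ml BMP2 and 80015906 with 50 ng/ml BMP2. All 6 osteoblast markers examined (Runx2, Sp7, Alpl, Ibsp, Bglap and Col1a1) were above 1 CPM (counts scaled to a common library total) in every library of day 6. Summed markers of other cell types were at most 2.55 CPM for macrophages and leukocytes, 0.141 CPM for endothelium, 0.129 CPM for skeletal muscle and 1.13 CPM for adipocytes, with Cdh5 and Myog at 0 in all 6 libraries of day 6. The epithelial sum (Krt5, Krt14, Cdh1, Epcam) was 0.800 CPM with GSK126, 1.91 and 5.07 CPM with 10 and 50 ng/ml BMP2, and 0.344 CPM with vehicle. The chondrocyte sum (Sox9, Col2a1, Acan) was 307 CPM with GSK126, 121 and 410 CPM with 10 and 50 ng/ml BMP2, and 91.4 CPM with vehicle, with Acan at 0 in all 4. The part of these cell types in the differences was not tested. The 45S ribosomal precursor Rn45s took 14.5% of counts with GSK126, 17.2% with 10 ng/ml BMP2 and 21.7% with 50 ng/ml BMP2. Leaving it out of the totals gave the same number of genes outside both BMP2 libraries, as counted next. The scaling factors were recomputed without it and offset the share of a single gene, so an equal number was close to fixed in advance.

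A gene was placed outside both BMP2 libraries when its level with GSK126, as log2(CPM + 0.25) after TMM scaling, was higher than both or lower than both. The distance to the nearer BMP2 library, on that log2 scale, is called the gap, and genes with a gap of at least 1 (2-fold) are described. A minimum of 1 CPM in 2 or more libraries left 12056 genes, of which 210 (1.74%) were at least 2-fold higher with GSK126 than in both BMP2 libraries, whereas 21 (0.174%) were at least 2-fold lower than in both. At any size, GSK126 lay above both for 3950 genes (32.8%), below both for 3930 (32.6%) and between them or level with one for 4176 (34.6%). The any-size split is set by the scaling: with library size alone, GSK126 lay above both for 6696 genes and below both for 1323. For all 210 and all 21 the exact 95% counting interval of the GSK126 level lay outside those of both BMP2 levels, but such intervals and floors cover counting error only. In 179 of the 210 and 20 of the 21 the gap was also larger than the difference between both BMP2 libraries, the only spread that this comparison holds on the BMP2 side. RNA was taken from whole cultures, so fewer cells of a type and less RNA per cell cannot be told apart.

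The smallest gaps counted as higher were those of Nckap5 (1.00), Smpdl3b (1.01) and Zfp185 (1.01), and those just short of it were Leprel1 (0.999), Stbd1 (0.995) and Col8a1 (0.993). On the lower side Tg (-1.002), Ids (-1.01) and Gli1 (-1.02) were just inside, and 9330117O12 (-0.999), Unc5c (-0.995) and BC028528 (-0.990) were just outside. Genes near 2-fold therefore change sides easily. Of the 210 higher genes, 103 were under 5 CPM with GSK126.

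**Figure D1:**
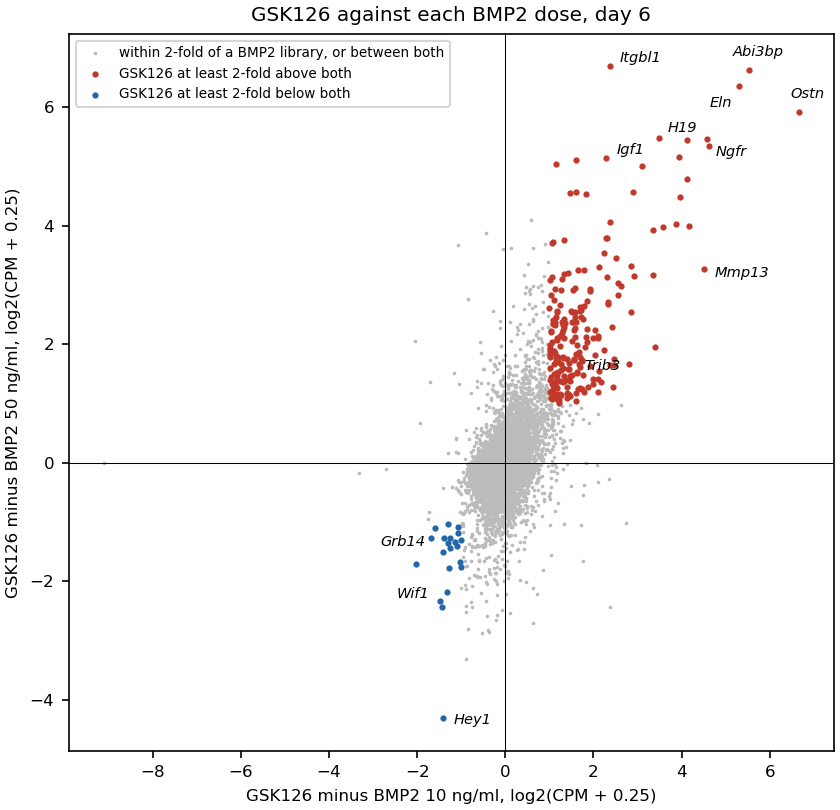
Each point is 1 of 12056 genes, placed by its log2(CPM + 0.25) with GSK126 minus that with 10 ng/ml BMP2 (horizontal axis) and minus that with 50 ng/ml BMP2 (vertical axis), on day 6. The 210 genes at least 2-fold above both fill the upper right and reach a gap of 5.91 (Ostn), whereas the 21 genes at least 2-fold below both reach only a few units at the lower left.

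Across all genes GSK126 stood closer to the lower BMP2 dose than the BMP2 doses stood to each other. The median absolute log2 difference was 0.139 between GSK126 and 10 ng/ml BMP2, with 350 genes at least 2-fold apart. It was 0.181 between both BMP2 doses (499 genes) and 0.187 between GSK126 and 50 ng/ml BMP2 (785 genes). Against vehicle, GSK126 was at a median of 0.198 with 663 genes 2-fold apart. These are single libraries, and no test bears on the order.

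An error for the difference came from edgeR's quasi-likelihood test on all 12 libraries, in a model where each day had its own coefficient for GSK126, for the 10 ng/ml dose and for the 50 ng/ml dose. That fit assumes that both agents add on the log2 scale, so the combination libraries inform it and any departure from adding enters the error. The contrast is GSK126 minus the mean of both BMP2 doses on day 6. With Benjamini-Hochberg adjustment, 573 genes (4.75%) were higher with GSK126 and 376 (3.12%) were higher with BMP2. Of the 210 and 21 genes described here, 166 (79.0%) and 15 (71.4%) were also called, in the same direction. The contrast uses the libraries that chose these genes, so p-values given below for single genes among them are a description and no independent support. The same holds for this overlap. It was 35 and 1 in a fit of day 6 alone, 85 and 6 without the 10 ng/ml BMP2 library of day 6, and 135 and 18 without the GSK126 library of day 6. Scaling by library size alone moved the split to 1187 and 141. TMM factors were 0.982 with GSK126, 0.943 with 10 ng/ml BMP2 and 0.813 with 50 ng/ml BMP2. The same change of scaling moved the median gene's difference, GSK126 minus the mean of both BMP2 libraries, from -0.003 to 0.16 on the log2 scale.

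Promoters are shown for the genes of largest gap in each direction that had one, to let a reader see the kind of start site from which these transcripts arise. Each runs from 250 bases before to 50 bases after the start in RefSeq's GRCm38.p6 annotation (the same assembly as mm10), 5′ to 3′ on the gene's strand, with CpG dinucleotides in capitals. Frem1 lies at chr4:83052117-83052416 (minus strand), Ngfr at chr11:95587649-95587948 (minus), Itih5 at chr2:10153293-10153592 (plus), Grb14 at chr2:65022717-65023016 (minus), Wif1 at chr10:121033754-121034053 (plus) and Pdk4 at chr6:5496229-5496528 (minus).
Frem1: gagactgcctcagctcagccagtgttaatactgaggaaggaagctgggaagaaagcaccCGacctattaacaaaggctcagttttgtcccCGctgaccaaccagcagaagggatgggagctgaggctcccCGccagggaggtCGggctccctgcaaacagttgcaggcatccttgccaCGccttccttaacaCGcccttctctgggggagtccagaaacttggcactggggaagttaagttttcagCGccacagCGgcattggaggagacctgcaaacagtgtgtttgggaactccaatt
Ngfr: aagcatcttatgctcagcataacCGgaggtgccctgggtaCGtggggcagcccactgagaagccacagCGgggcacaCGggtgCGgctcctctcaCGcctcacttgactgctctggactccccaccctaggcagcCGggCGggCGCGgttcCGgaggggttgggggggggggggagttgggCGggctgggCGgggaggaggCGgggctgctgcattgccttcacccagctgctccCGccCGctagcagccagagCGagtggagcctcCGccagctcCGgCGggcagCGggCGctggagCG
Itih5: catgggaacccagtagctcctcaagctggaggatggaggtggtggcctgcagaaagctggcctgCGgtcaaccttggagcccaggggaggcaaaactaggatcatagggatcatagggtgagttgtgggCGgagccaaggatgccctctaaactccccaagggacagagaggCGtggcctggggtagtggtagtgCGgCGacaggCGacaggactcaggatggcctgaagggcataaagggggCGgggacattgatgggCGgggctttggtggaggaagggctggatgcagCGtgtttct
Grb14: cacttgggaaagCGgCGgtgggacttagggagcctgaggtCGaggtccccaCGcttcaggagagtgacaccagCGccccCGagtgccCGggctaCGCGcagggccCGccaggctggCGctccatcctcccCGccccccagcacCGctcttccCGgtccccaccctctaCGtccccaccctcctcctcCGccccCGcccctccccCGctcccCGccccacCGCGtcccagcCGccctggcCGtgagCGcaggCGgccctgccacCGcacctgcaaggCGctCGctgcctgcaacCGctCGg
Wif1: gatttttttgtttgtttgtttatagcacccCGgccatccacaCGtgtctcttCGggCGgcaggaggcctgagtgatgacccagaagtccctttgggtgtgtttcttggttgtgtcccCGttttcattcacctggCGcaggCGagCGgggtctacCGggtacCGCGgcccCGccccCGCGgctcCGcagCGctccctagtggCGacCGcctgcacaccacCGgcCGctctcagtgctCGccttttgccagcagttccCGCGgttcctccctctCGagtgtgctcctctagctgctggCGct
Pdk4: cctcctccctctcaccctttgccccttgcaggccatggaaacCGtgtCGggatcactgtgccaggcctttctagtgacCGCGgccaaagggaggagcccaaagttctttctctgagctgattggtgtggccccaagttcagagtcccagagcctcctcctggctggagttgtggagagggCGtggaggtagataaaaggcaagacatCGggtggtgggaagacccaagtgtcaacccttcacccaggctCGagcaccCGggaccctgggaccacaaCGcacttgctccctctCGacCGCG
The promoters of Frem1 and Itih5 held 8 and 9 CpGs, and that of Pdk4 held 12. Those of Ngfr, Wif1 and Grb14 held 23, 25 and 30. Observed over expected CpG, a measure of how far a promoter resembles a CpG island, was 0.345, 0.369, 0.436, 0.607, 0.848 and 0.762 in that order.

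A promoter was matched for 9609 of the 12056 genes, for 148 of the 210 higher genes and for 13 of the 21 lower genes. Observed over expected CpG was below 0.6 in 71 of the 148 (48.0%) and in 5 of the 13 (38.5%), beside 24.9% of all 9609. The median was 0.610 among higher genes and 0.781 over all genes. The motif GGCGCC was present on either strand in 16.2% of the higher, 23.1% of the lower and 22.4% of all promoters. The core of the RUNX motif, TGTGGT, was present on either strand in 14.9%, 23.1% and 12.0%. These shares describe letters in a window of 300 bases and were not tested.

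The genes of largest gap that were higher with GSK126 encode a secreted bone peptide (Ostn), matrix proteins (Abi3bp, Eln, Frem1, Itih5, Mfap4 and Hmcn1), a receptor (Ngfr), enzymes (Enpep and Mmp13), intracellular proteins (Iqgap2, Reps2 and Gng2) and a noncoding RNA (H19). Ostn (osteocrin, a peptide secreted by osteoblasts; mm10 chr16:27307641-27351209) was at 27.7 CPM with GSK126, against 0.0262 and 0.215 CPM with 10 and 50 ng/ml BMP2 and 0.0861 CPM with vehicle. It was also at 29.8 and 42.0 CPM in the combinations, so Ostn was high in the 3 libraries of day 6 that had GSK126 and at 1 to 7 read pairs in those without it. The fold over the nearer BMP2 library was 129 (95% counting interval 62.3 to 321). In the additive fit the difference was 7.94 ± 0.35 (log2, SE; edgeR adjusted p = 0.0016). Ostn passed the filter on low counts only through libraries with GSK126. On day 1 no read pair was counted for Ostn with GSK126, either BMP2 dose or vehicle.

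The elastic fibre genes Eln and Mfap4 behaved otherwise in the combinations. Eln (tropoelastin; chr5:134702596-134747254) was at 30.1 CPM with GSK126, 0.524 and 0.123 CPM with 10 and 50 ng/ml BMP2, and 1.33 CPM with vehicle, a fold of 57.5 (37.1 to 94.4) over the nearer BMP2 library. With both agents it was at 5.89 CPM under the lower BMP2 dose and 0.680 CPM under the higher, so the higher BMP2 dose went with a level below that of vehicle even where GSK126 was present. Mfap4 (a microfibril-associated glycoprotein; chr11:61485444-61488704) was at 15.9 CPM with GSK126, 0.681 and 0.123 CPM with BMP2, and 2.75 CPM with vehicle. Both passed the edgeR quasi-likelihood test (adjusted p = 0.0032 for each, log2 differences 7.37 ± 0.44 and 5.89 ± 0.56, SE). Of 11 elastic fibre genes measured, these 2 (and no other) were at least 2-fold higher than both BMP2 libraries, 6 lay above both and 4 below both (over all genes 1.74% were 2-fold higher, 32.8% above and 32.6% below), with a median difference of 0.57 from the mean of both BMP2 libraries. Fbn2 (fibrillin 2) was at 314 CPM with GSK126 and at 202 and 57.9 CPM with BMP2, whereas Lox (lysyl oxidase, which cross-links elastin and collagen) was at 695 CPM with GSK126 and 782 and 2065 CPM with BMP2.

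Other matrix genes shared the order of Eln. Abi3bp (a matrix protein that binds ABI3; chr16:56477846-56690135) was at 57.4 CPM with GSK126, 0.995 and 0.338 CPM with BMP2 and 6.09 CPM with vehicle, a fold of 57.7 (41.9 to 81.7). Frem1 (a basement membrane protein of the Fraser complex; chr4:82897920-83052167) was at 12.4 CPM against 0.262 and 0.0615 CPM, with 0.603 CPM for vehicle. Hmcn1 (hemicentin 1; chr1:150562502-150993435) was at 18.5 CPM against 0.969 and 0.277 CPM, with 2.35 CPM for vehicle. For these 3 and for Itih5 (a heavy chain of the inter-alpha-trypsin inhibitor family, which binds hyaluronan; 9.14 CPM against 0.288 and 0.0923 CPM), GSK126 was highest, vehicle next, then 10 ng/ml BMP2, and 50 ng/ml BMP2 was lowest. With 50 ng/ml BMP2 and GSK126 together, Abi3bp was at 0.258 CPM, Frem1 at 0.164 CPM and Hmcn1 at 0.610 CPM, each nearer to BMP2 than to GSK126. Their edgeR adjusted p values ranged from 0.0022 (Itih5) to 0.0097 (Hmcn1). Frem1 and Itih5 passed the filter on low counts only through libraries with GSK126.

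Among small leucine-rich proteoglycans, which organise collagen fibrils, 2 of 9 measured were at least 2-fold higher with GSK126, 4 lay above both BMP2 libraries and 4 below both (over all genes 1.74%, 32.8% and 32.6%). Lum (lumican; chr10:97565501-97572703) was at 566 CPM with GSK126, 177 and 178 CPM with BMP2 and 658 CPM with vehicle, so the GSK126 library was close to vehicle. Podn (podocan) was at 24.9 CPM, against 10.2 and 3.08 CPM with BMP2 and 17.0 CPM with vehicle. Dcn (decorin) went the other way, at 282 CPM with GSK126, 371 and 1980.2 CPM with BMP2 and 424 CPM with vehicle (edgeR adjusted p = 0.0035 for the difference). The list as a whole had a median of -0.19, and its members thus pointed in both directions.

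**Figure D2:**
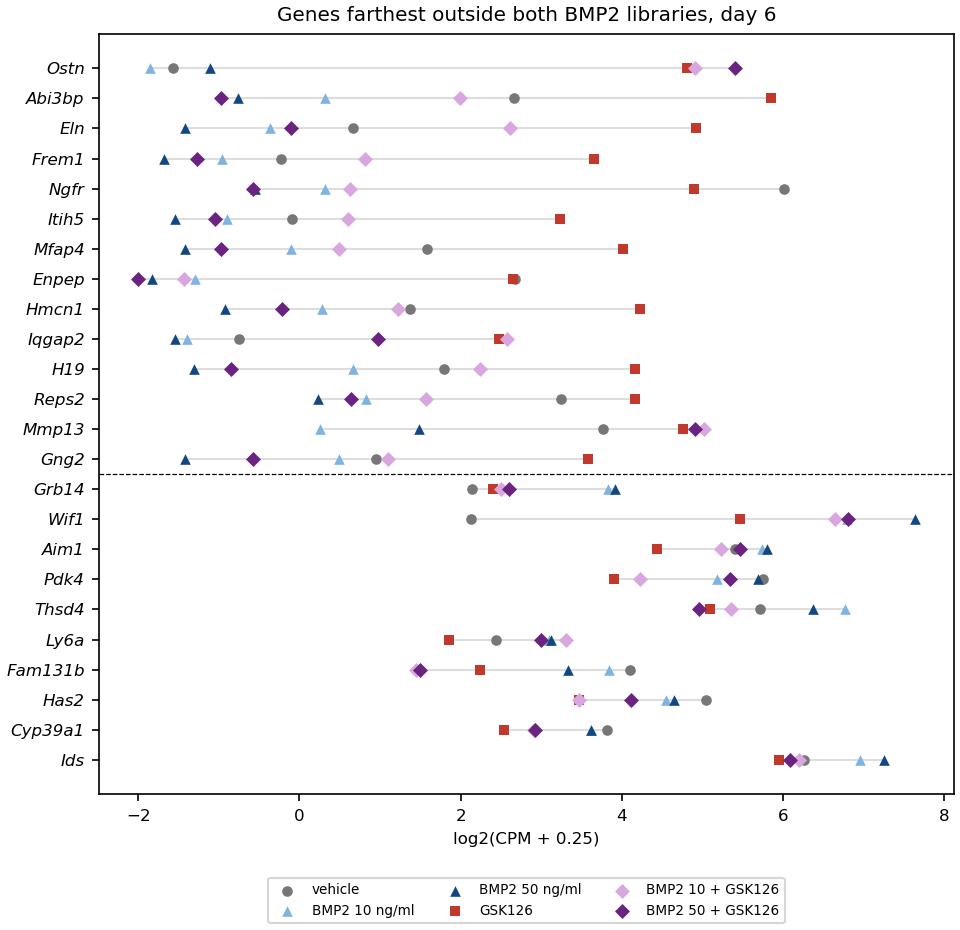
Levels of the 14 genes of largest gap that were higher with GSK126 (above the dashed line) and the 10 that were lower (below it) in the 6 libraries of day 6, as log2(CPM + 0.25), 1 symbol per library. The red squares of GSK126 stand at the right of both blue BMP2 triangles above the line and at their left below it, and the purple combinations sit beside GSK126 for Ostn and Mmp13 but beside BMP2 for Ngfr and Enpep.

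The insulin-like growth factor (IGF) axis, which supports osteoblast growth and matrix synthesis, was higher with GSK126 than with BMP2 for both ligands. Igf1 (chr10:87859056-87937047) was at 128 CPM with GSK126, 26.1 and 3.41 CPM with 10 and 50 ng/ml BMP2, and 111 CPM with vehicle, so it was the BMP2 libraries that departed from vehicle. The fold over the nearer BMP2 library was 4.92 (4.60 to 5.27), and the additive fit gave 3.68 ± 0.19 (log2, SE; edgeR adjusted p = 0.00055). Igf2 (chr7:142650768-142661035) was at 14.1 CPM with GSK126, 2.20 and 1.51 CPM with BMP2 and 4.56 CPM with vehicle, so here GSK126 also stood above vehicle. Of the binding proteins that hold IGFs outside cells, Igfbp4 was at 487 CPM against 182 and 53.1 CPM (vehicle 503 CPM) and Igfbp2 at 8.94 CPM against 3.40 and 0.431 CPM (vehicle 4.26 CPM). These 4 of 8 measured members, beside 1.74% of all genes, passed the 2-fold mark, none was 2-fold lower, and the receptor gene Igf1r lay between, at 89.3 CPM against 80.7 and 99.4 CPM.

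Igf2 shares an imprinted domain with H19, a long noncoding RNA of maternal origin (chr7:142575532-142578146). H19 was at 17.6 CPM with GSK126, 1.34 and 0.154 CPM with BMP2 and 3.21 CPM with vehicle, a fold of 13.2 (9.94 to 17.9), and the additive fit gave 5.48 ± 0.30 (log2, SE; edgeR adjusted p = 0.00058). With both agents H19 was at 4.46 and 0.305 CPM and Igf2 at 5.33 and 4.53 CPM. Among the other 3 imprinted growth regulators measured, Plagl1 was at 313 CPM with GSK126 against 164 and 268 CPM, and Grb10 and Mest lay between both BMP2 libraries.

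Receptors and ligands of the neurotrophin and GDNF families, best known for neuronal survival, lay above both BMP2 libraries for 8 of 9 measured members and below both for none, beside 32.8% and 32.6% of all genes. At least 2-fold higher were 4 of the 9, beside 1.74%. Ngfr (the p75 neurotrophin receptor; chr11:95568821-95587698) was at 29.5 CPM with GSK126, 0.995 and 0.431 CPM with BMP2 and 64.2 CPM with vehicle. Both agents were thus below vehicle, BMP2 by far the more, and with both agents together Ngfr was at 1.29 and 0.422 CPM. Its fold over the nearer BMP2 library was 29.7 (21.5 to 42.1; edgeR adjusted p = 0.0015). Gfra2, a co-receptor of the GDNF family, was at 59.4 CPM with GSK126, 26.5 and 1.57 CPM with BMP2 and 101 CPM with vehicle. Sort1 (sortilin, a co-receptor of pro-neurotrophins) was at 8.76 CPM against 2.70 and 3.75 CPM, with 3.25 CPM for vehicle. Ret, the signalling receptor for GDNF ligands, was at 1.20 CPM against 0.262 and 0.0308 CPM but missed the threshold of the additive fit (edgeR adjusted p = 0.071).

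Several further genes were within 2-fold of vehicle with GSK126 and lay far lower with BMP2. Enpep (aminopeptidase A, which cleaves angiotensin II) was at 6.05 CPM with GSK126, 6.11 CPM with vehicle, and 0.157 and 0.0308 CPM with 10 and 50 ng/ml BMP2. With both agents Enpep was at 0.119 CPM and at 0 of 47391827 read pairs, where 3 pairs would come to 0.0704 CPM. Reps2 (a protein of receptor endocytosis) was at 17.7 CPM with GSK126, 9.23 CPM with vehicle, and 1.52 and 0.923 CPM with BMP2, and had the smallest p of the leading genes (3.89 ± 0.16, log2, SE; edgeR adjusted p = 0.00046). For Enpep and Reps2, as for Igf1, the combinations stood with BMP2, Reps2 at 2.73 and 1.31 CPM and Igf1 at 17.1 and 2.84 CPM.

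Mmp13 (collagenase 3, which cleaves fibrillar collagen in bone) was at 26.8 CPM with GSK126, 0.943 and 2.55 CPM with BMP2 and 13.3 CPM with vehicle. Unlike the preceding genes, it was at 32.3 and 29.8 CPM with both agents, at or above the level with GSK126 alone. The fold over the nearer BMP2 library was 10.5 (8.40 to 13.3), yet the additive fit, 4.52 ± 1.15 (log2, SE), missed the threshold (edgeR adjusted p = 0.061). Mmp9 was at 2.20 CPM against 0.890 and 0.615 CPM. Mmp13 and Mmp9 were the 2 of 11 matrix proteases and inhibitors measured that were at least 2-fold higher, beside 1.74% of all genes. GSK126 lay above both BMP2 libraries for 6 of the 11 and below both for 4, beside 32.8% and 32.6%. In the edgeR fit 2 were higher with GSK126 and 1 with BMP2, beside 4.75% and 3.12%. The remaining 9 were within 2-fold of a BMP2 library or between both, Timp3 the farthest at 573 CPM against 419 and 308 CPM.

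Genes of the integrated stress response, in which ATF4 and its partners switch on amino acid synthesis and transport, lay above both BMP2 libraries for 12 of 13 measured members, beside 32.8% of all genes, and 3 of the 13 were at least 2-fold higher, beside 1.74%. Trib3 (a pseudokinase induced by ATF4; chr2:152337425-152344060) was at 90.2 CPM with GSK126, 30.3 and 26.9 CPM with BMP2 and 12.4 CPM with vehicle, so both agents stood above vehicle and GSK126 about 3-fold above BMP2. Atf3 was at 17.9 CPM against 5.6 and 6.12 CPM, and Slc7a11 (the cystine transporter) at 17.7 CPM against 6.47 and 5.72 CPM. The combinations reached 135 and 158 CPM for Trib3. The list's median difference from the mean of both BMP2 libraries was 0.72, beside -0.003 over all genes. Of its 13 members 7 were higher with GSK126 in the edgeR fit and none higher with BMP2, beside 4.75% and 3.12% of all genes. Slc7a5 was at 260 CPM against 138 and 114 CPM (adjusted p = 0.0015) and Phgdh, of serine synthesis, at 221 CPM against 143 and 119 CPM (adjusted p = 0.0032).

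Cholesterol synthesis genes showed a small difference of the same sign. GSK126 lay above both BMP2 libraries for 15 of 19 members (32.8% of all genes), but the largest gap was 0.34 (Mvd), the median difference was 0.24, and no member passed the edgeR test in either direction (4 were higher with GSK126 when scaled by library size alone). Vehicle was the highest of the 4 libraries for 17 of the 19.

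Levels of usual PRC2 target genes give only an indirect view of Polycomb silencing, as histone methylation was not measured. Of 35 developmental regulators listed as usual PRC2 targets, 13 passed the filter on low counts. GSK126 lay above both BMP2 libraries for 5 of the 13 and below both for 5, beside 32.8% and 32.6% of all genes. The median difference from the mean of both BMP2 libraries was 0.058. Of the 13, 1 (Hoxb13) was at least 2-fold higher with GSK126, beside 1.74% of all genes. Hoxb13 was at 1.53 CPM (69 read pairs) with GSK126, 0.0524 CPM (2 pairs) with 10 ng/ml BMP2, 0 pairs with 50 ng/ml BMP2 and 0.0215 CPM with vehicle. It was at 1.19 and 0.797 CPM in the combinations, and so passed the filter only through libraries with GSK126. Of the remaining 12, Pax3 was lower with GSK126 than with BMP2 in the edgeR fit, at 16.6 CPM against 24.0 and 26.7 CPM (adjusted p = 0.0094). Cdkn2a and Cdkn2b, classical PRC2 targets, had no read pair in the 3 libraries compared. Hoxa10, a HOX gene outside the list, was also at least 2-fold higher with GSK126 than in both BMP2 libraries. It was picked from the 210 higher genes after they were known, and HOX genes as a family are not described here. The inhibited enzyme's own gene, Ezh2, was at 35.0 CPM with GSK126 and 38.8 and 32.3 CPM with BMP2, beside 46.5 CPM with vehicle. Phf19, a PRC2 accessory subunit, was the 1 of 11 subunits measured that was 2-fold higher, beside 1.74% of all genes. It was at 2.00 CPM against 0.655 and 0.492 CPM, with 1.66 CPM for vehicle.

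Cartilage genes were mixed. Col9a1, a collagen of cartilage, was at 4.71 CPM with GSK126 (212 read pairs) and at 0.0262 and 0.0615 CPM with BMP2 (1 and 2 pairs), and at 2.94 and 1.55 CPM in the combinations. The ratio to the nearer BMP2 library was 76.6 with a counting interval from 21.0 to 637. Col2a1, the main cartilage collagen, lay between both BMP2 libraries at 283 CPM against 100 and 371 CPM, as did Sox9 at 23.8 CPM against 21.1 and 38.9 CPM.

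The 21 genes lower with GSK126 than with both BMP2 doses were separated by less. Grb14 (an adaptor that inhibits the insulin receptor; chr2:64912482-65022766) was at 5.02 CPM with GSK126, 13.9 and 14.8 CPM with BMP2 and 4.15 CPM with vehicle, and at 5.43 and 5.84 CPM with both agents. It was thus high only in the 2 libraries with BMP2 and no GSK126, 2.77-fold (2.36 to 3.25) above GSK126 at the nearer dose (edgeR adjusted p = 0.046). Wif1 (a secreted Wnt inhibitor; chr10:121034004-121100642) was at 43.9 CPM with GSK126, 110 and 199 CPM with BMP2 and 4.11 CPM with vehicle, so both agents stood well above vehicle and BMP2 above GSK126. In the additive fit Wif1 missed the threshold (edgeR adjusted p = 0.17). Hey1, a Notch and BMP target, was at 0.0889 CPM with GSK126 (4 read pairs), 0.655 and 6.46 CPM with BMP2 and 0.0215 CPM with vehicle (-4.92 ± 0.71, log2, SE; edgeR adjusted p = 0.011).

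For 5 of the 21 genes, GSK126 was at least 2-fold below vehicle and the BMP2 libraries were not both 2-fold away from it. Among them, Pdk4 (a kinase that inhibits pyruvate dehydrogenase) was at 14.7 CPM with GSK126, 36.0 and 51.3 CPM with BMP2 and 53.7 CPM with vehicle. Has2 (hyaluronan synthase) was at 10.8 CPM against 23.2 and 24.9 CPM, with 32.8 CPM for vehicle, and Cyp39a1 (an oxysterol hydroxylase) at 5.56 CPM against 12.0 CPM at each dose, with 13.9 CPM for vehicle. Of these, Cyp39a1 passed the edgeR test (adjusted p = 0.027), whereas Pdk4 (0.095) and Has2 (0.066) did not. For 7 further genes GSK126 was within 2-fold of vehicle and the BMP2 libraries were not both 2-fold away from it. Of these, Aim1 was at 21.4 CPM with GSK126, 53.0 and 55.4 CPM with BMP2 and 42.2 CPM with vehicle. Thsd4 (an ADAMTS-like protein of fibrillin microfibrils) was at 33.9 CPM against 109 and 82.3 CPM (vehicle 52.2 CPM), and Ids (a lysosomal sulfatase that degrades glycosaminoglycans) at 61.6 CPM against 124 and 152 CPM (vehicle 76.3 CPM). In both genes the combinations, at 40.6 and 31.0 CPM and at 73.1 and 67.9 CPM, stood near GSK126. Ly6a (Sca-1, of a gene family with close relatives that the counting may not separate) was at 3.36 CPM against 8.33 and 8.43 CPM (vehicle 5.19 CPM).

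Most genes of the mineralising osteoblast, like most genes at large, did not lie 2-fold outside both BMP2 libraries. Of 17 bone matrix and mineralisation genes measured, 2 (Ostn and Enpp1) were at least 2-fold higher and none at least 2-fold lower with GSK126, beside 1.74% and 0.174% of all genes. It lay between both BMP2 libraries for 9, below both for 6 and above both for 2, beside 34.6%, 32.6% and 32.8%. The list's median difference from the mean of both BMP2 libraries was -0.385, beside -0.003 over all genes. Ibsp (bone sialoprotein) was at 1353 CPM with GSK126, 1073 and 2406 CPM with 10 and 50 ng/ml BMP2, and 242 CPM with vehicle. Bglap (osteocalcin) was at 63.4 CPM, between 30.6 and 187 CPM, with 4.56 CPM for vehicle. Its near-identical copy Bglap2 was at 22.0 CPM, between 3.09 and 44.9 CPM, and values of these copies are uncertain because reads they share may have been split. Spp1 (osteopontin) was at 528 CPM, between 363 and 666 CPM, and Sp7 (osterix) at 230 CPM, between 225 and 513 CPM. GSK126 therefore lay between the BMP2 doses for these genes. It was nearer to the 10 ng/ml dose for Ibsp, Bglap and Sp7 and nearer to the 50 ng/ml dose for Bglap2 and Spp1. Where the doses are far apart, a place between them does not show that the agents gave equal levels.

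Some bone genes lay slightly below both BMP2 libraries. Alpl (tissue-nonspecific alkaline phosphatase) was at 28.9 CPM with GSK126, against 38.6 and 59.3 CPM with BMP2 and 12.5 CPM with vehicle, a gap of -0.41. Runx2 was at 333 CPM, against 342 and 492 CPM (vehicle 248 CPM), and Col1a1 at 35880.5 CPM, against 37183 and 70930 CPM (vehicle 28579 CPM). Dmp1, of the osteocyte, was at 15.4 CPM, against 16.2 and 87.1 CPM (vehicle 9.56 CPM). The gaps of Runx2 (-0.038), Col1a1 (-0.051) and Dmp1 (-0.074) were small, and the counting interval of the Dmp1 fold (0.850 to 1.06) included 1. Sides this close depend on the scaling. With library size alone, members below both fell from 2 to 0 of 15 osteoblast transcription factors and from 6 to 5 of 17 bone matrix and mineralisation genes. None of Alpl, Runx2, Col1a1 and Dmp1 passed the edgeR test (adjusted p of 0.17, 0.17, 0.067 and 0.57). Enpp1, which makes the mineralisation inhibitor pyrophosphate, was at 2.40 CPM against 0.759 and 0.923 CPM and also missed it (adjusted p = 0.057).

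**Figure D3:**
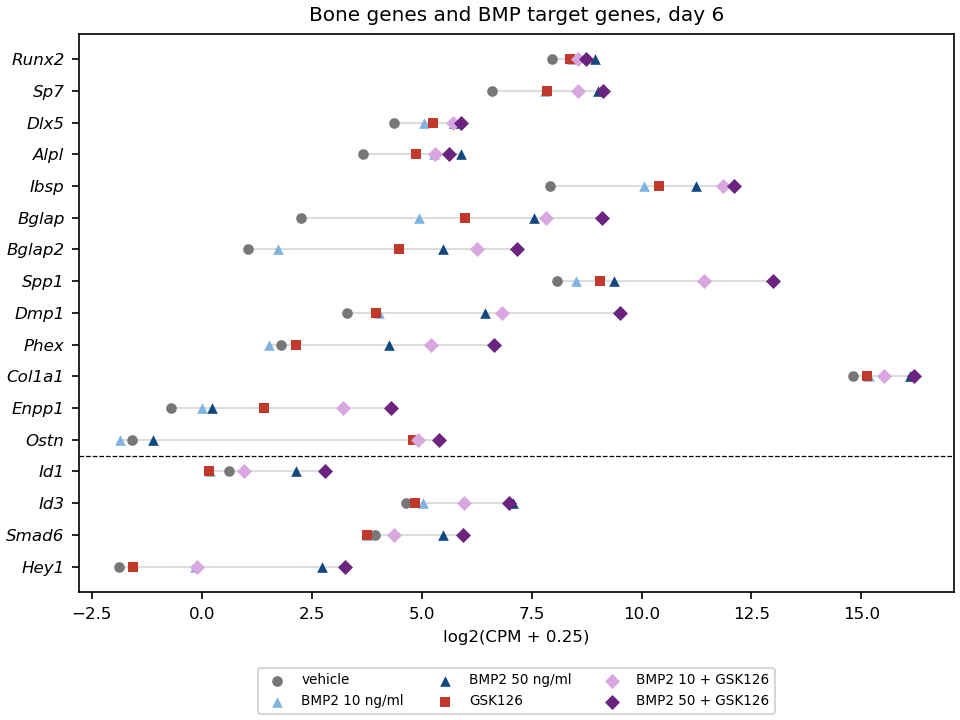
Levels of bone genes (above the dashed line) and of BMP target genes (below it) in the 6 libraries of day 6, as log2(CPM + 0.25), 1 symbol per library. For Ibsp, Bglap, Bglap2 and Spp1 the red square of GSK126 lies between both BMP2 triangles, for Id1, Smad6 and Hey1 it lies at or near vehicle, and Ostn is set apart.

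The genes that report BMP-SMAD signalling separated GSK126 from the higher BMP2 dose far more than from the lower. Id3 was at 28.5 CPM with GSK126, 32.7 CPM with 10 ng/ml BMP2, 135 CPM with 50 ng/ml BMP2 and 24.9 CPM with vehicle. Smad6 was at 13.3 CPM with GSK126 and also with 10 ng/ml BMP2, 44.6 CPM with 50 ng/ml BMP2 and 15 CPM with vehicle, and Id1 at 0.867, 0.890, 4.18 and 1.29 CPM in that order. GSK126 thus stood near vehicle for these 3 genes, and so did the 10 ng/ml dose at this time. Of 16 members of the list, 2 were at least 2-fold higher with GSK126 and 1 (Hey1) at least 2-fold lower, beside 1.74% and 0.174% of all genes. In the edgeR fit 2 were higher with GSK126 and 5 with BMP2, beside 4.75% and 3.12%. The list's median difference from the mean of both BMP2 libraries was -0.87. Bambi, a decoy receptor, was at 7.34 CPM against 13.8 and 25.1 CPM (edgeR adjusted p = 0.046).

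The 2 members that were 2-fold higher with GSK126 were low with BMP2. Id4 was at 10.7 CPM with GSK126, 4.03 and 1.88 CPM with BMP2 and 21.6 CPM with vehicle (edgeR adjusted p = 0.0094). Nog (noggin, a secreted BMP antagonist) was at 4.82 CPM, against 1.99 and 0.615 CPM, with 3.59 CPM for vehicle (adjusted p = 0.17). Grem1, another antagonist, followed the same order at 69.1 CPM against 44.5 and 8.49 CPM, with 67.7 CPM for vehicle (adjusted p = 0.028).

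Cell cycle genes were low with both agents, and the order between them depended on the scaling. Vehicle was the highest of the 4 libraries for all 16 mitosis genes, and 50 ng/ml BMP2 was below 10 ng/ml BMP2 for all 16. Mki67 was at 125 CPM with GSK126, 196 and 135 CPM with BMP2 and 288 CPM with vehicle, and Cdk1 at 40.7 CPM, against 66.5 and 46.8 CPM, with 75.5 CPM for vehicle. GSK126 lay below both BMP2 libraries for 11 of 16 and between them for 5, with gaps no larger than -0.24, and 12 of the 16 were called higher with BMP2 in the edgeR fit, beside 3.12% of all genes. Under scaling by library size alone GSK126 lay between both BMP2 libraries for all 16, and 1 member was called. The part of proliferation in the other differences was not tested.

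**Figure D4:**
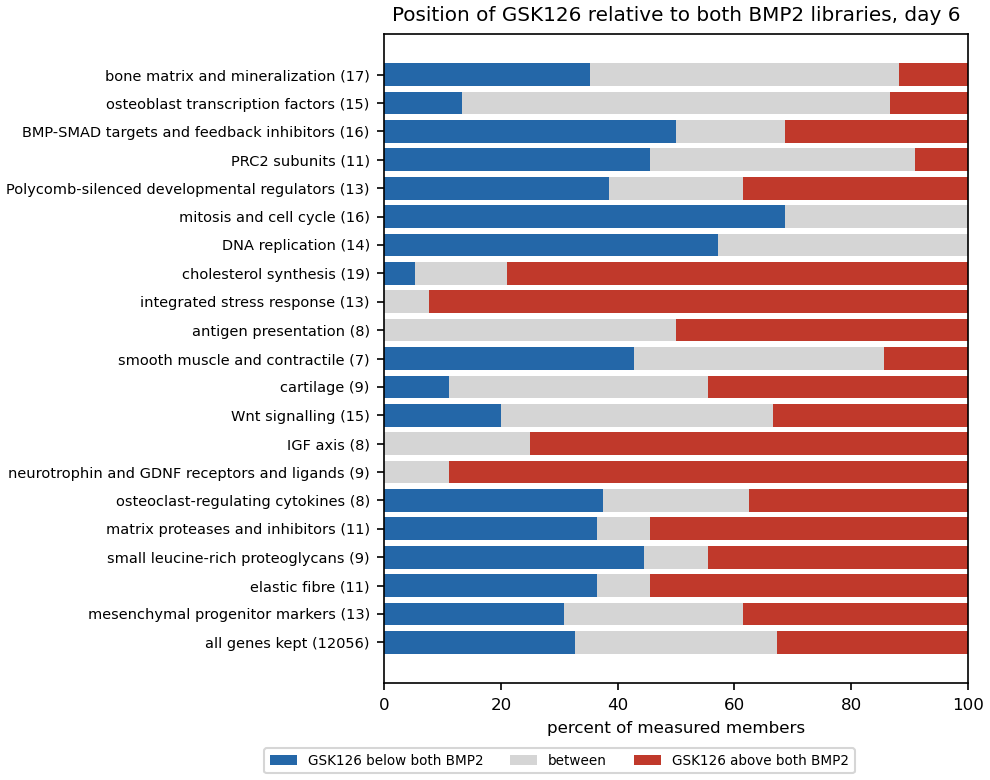
Percent of the measured members of each gene list (number in brackets) for which GSK126 lay below both BMP2 libraries, between them or level with one, or above both, on day 6. The bottom bar gives all 12056 genes (32.6%, 34.6% and 32.8%), and the bars for the stress response, the IGF axis, the neurotrophin and GDNF genes and cholesterol synthesis are mostly red.

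Vehicle served to sort the 210 higher genes by which agent had departed from it by 2-fold, counting BMP2 as departed where both doses had. Under this rule BMP2 could be more than 2-fold away at 1 dose and still count as not departed. Examples are Podn and Nog, at log2 differences of -2.38 and -2.15 from vehicle with 50 ng/ml BMP2. GSK126 was above vehicle with BMP2 not departed for 83 genes, among them Ostn, Frem1, Itih5, Col9a1 and Igf2. BMP2 was below vehicle with GSK126 within 2-fold of it for 68 genes, among them Enpep, Reps2, Igf1, Igfbp4 and Lum. For 41 genes neither had departed, for 7 both were above (Trib3 and Slc7a11 among them), for 5 both were below (Ngfr among them) and for 6 they had departed in opposite directions. Those 6 were Abi3bp, Eln, Mfap4, Hmcn1, H19 and Itgbl1. Of the 21 lower genes, BMP2 was above vehicle for 7 with GSK126 near it, GSK126 was below vehicle for 5 with BMP2 near it, neither had departed for 7, and both were above for 2.

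The combination libraries, which the sorting did not use but the filter on low counts did, differed between the 2 large classes. A position was computed for each gene, 0 at the level of BMP2 at the same dose and 1 at the level of GSK126. For the 83 genes where GSK126 alone stood above vehicle, the median position was 0.909 with the lower dose and 0.701 with the higher, and the combination was nearer to GSK126 for 66 and 51 genes. For the 68 genes where BMP2 stood below vehicle, the medians were -0.0313 and 0.118, and the combination was nearer to BMP2 for 58 and 59 genes, 55 of them at both doses. Of the 83, 51 stood nearer to GSK126 at both doses and 17 nearer to BMP2 at both, Frem1, Itih5 and Igf2 among the latter. In each class, then, the combination was more often nearer to the agent that had departed from vehicle. For genes under 1 CPM with vehicle and BMP2, the filter on low counts favoured this. They could pass it only if a combination or a library of day 1 also reached 1 CPM. The medians of the 83 genes may therefore lie too near GSK126, by an amount that was not tested. For the 6 genes departing in opposite directions the combination was nearer to BMP2 in 5 at 10 ng/ml and in all 6 at 50 ng/ml.

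**Figure D5:**
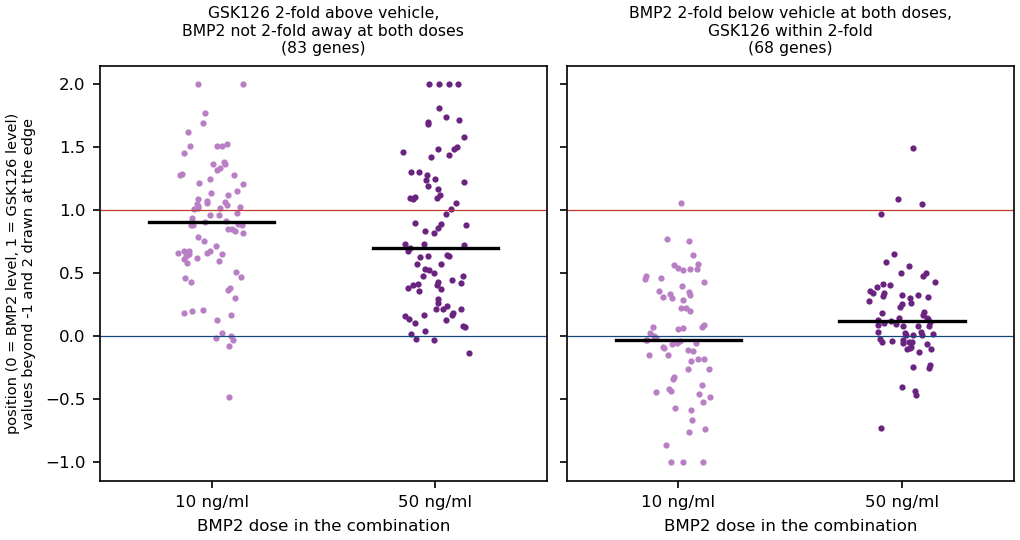
Position of the combination library between BMP2 of the same dose (0, blue line) and GSK126 (1, red line), on the log2 scale, for the 83 genes where GSK126 alone stood above vehicle (left) and the 68 genes where BMP2 stood below it (right). Points are genes, with values beyond -1 and 2 drawn at the edge, and black bars are medians (0.909 and 0.701 on the left, -0.0313 and 0.118 on the right).

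The same 3 treatments on day 1 gave libraries that the day 6 comparison did not use. On that day 54 genes (0.448%) were at least 2-fold higher with GSK126 than in both BMP2 libraries and 25 (0.207%) at least 2-fold lower, and at any size GSK126 lay above both for 41.4% of genes and below both for 39.5%. Of the 210 genes higher on day 6, 133 (63.3%) lay above both BMP2 libraries on day 1 and 38 below both, and 13 were already 2-fold above. These were Lama5, Gdf6, Podn, Mtus2, Gimap6, Gpnmb, Tspan11, Odz4, Col23a1, Gfra2, Amigo2, Lama1 and Slc25a23. Gfra2, for example, was at 11.5 CPM with GSK126, 4.86 and 3.26 CPM with BMP2 and 9.50 CPM with vehicle on day 1. Gpnmb, a transmembrane glycoprotein also called osteoactivin, was at 9.14 CPM against 4.12 and 3.98 CPM on day 1 and at 29.9 CPM against 7.18 and 6.15 CPM on day 6.

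Of the 21 lower genes, 12 (57.1%) lay below both BMP2 libraries on day 1 and 6 above both, and Hey1 and Wif1 were already 2-fold below. Wif1 was at 0.178 CPM with GSK126 and 0.873 and 3.34 CPM with BMP2 on that day, and Hey1 at 0.474 CPM against 1.61 and 3.58 CPM. Of the bone genes described for day 6, Sp7, Ibsp and Alpl stood at least 2-fold below both BMP2 doses on day 1. Sp7 was at 64.4 CPM against 154 and 231 CPM (gap -1.26), Ibsp at 7.42 CPM against 23.1 and 32.0 CPM (gap -1.61) and Alpl at 0.691 CPM against 2.14 and 3.84 CPM (gap -1.34). For these 3 genes the GSK126 library of day 1 was within 2-fold of vehicle, which had 57.3, 3.98 and 0.896 CPM. Others did not share that distance on day 1, with gaps of -0.18 for Runx2, -0.02 for Col1a1, -0.42 for Dmp1 and 0.46 for Spp1.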

How the data were processed

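Illumina mRNA libraries were made from total RNA per the labels' protocols. The submitters' processing notes name mm10, bcl2fastq, TopHat2 2.0.6 and HTSeq. How reads were counted, on which strand and against which annotation is not given in the sources used here, so overlapping or antisense genes cannot be told apart. The authors deposited counts and RPKM values (counts scaled by gene length and library total, per the file headers) for 23358 rows, of which 69 share a name. All 195176 counts above 0 were even, so intervals were computed on read pairs; a floor of 3 pairs came to 0.0486 to 0.0923 CPM. Column titles gave each library's group.

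Counts were tested as deposited. CPM used TMM effective library sizes, with a pseudocount of 0.25 on the log2 scale. Intervals are exact at 95% (Poisson for counts, conditional binomial for folds). edgeR 4.0.16 (R 4.3.3) quasi-likelihood tests used 8 coefficients and 4 residual degrees of freedom, with Benjamini-Hochberg adjustment at 0.05. No condition was repeated, so the residual spread is the departure of libraries from the additive model on each day. It holds any interaction of the agents together with variation among libraries. With no label of separate cultures, that variation may be technical. DESeq2 1.42.0, limma 3.58.1 (voom) and the deposited RPKM served as alternatives, with other scalings, filters, pseudocounts and thresholds, and each library left out. Scripts were tested on simulated data.

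Named genes were, per direction, up to 14 genes of largest gap with at least 5 CPM (in GSK126 when higher, in the lower BMP2 library when lower) and a symbol that is no Gm, Rik, accession, microRNA, snoRNA, pseudogene or shared name; up to 4 genes past 2-fold per list; and a fixed panel. Genes cited beyond that rule, as members of a list or examples of a class, were chosen after their values were seen. The 30 lists hold 369 symbols, 270 of them measured, 7 found under older symbols. The genes compared, the lists and the tests were chosen with earlier results of these data known. Some list members are not reported here.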

Additional observations from a re-analysis of the deposited data

Results flagged for a closer look

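Mmp13 lay on opposite sides of BMP2 on the 2 days, a difference that was not tested. On day 1 it was at 0.375 CPM with GSK126 (19 read pairs), below 1.46 and 1.43 CPM with 10 and 50 ng/ml BMP2, a gap of -1.43, and vehicle was at 0.373 CPM. On day 6 it was at 26.8 CPM with GSK126, above 0.943 and 2.55 CPM, a gap of 3.27. It was the 1 gene of the 231 outside both BMP2 libraries by 2-fold on day 6 that was 2-fold outside them on the opposite side on day 1.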

How the results depend on the processing

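The counts of 210 higher and 21 lower genes moved with most choices. Higher genes numbered 455 at 1.5-fold and 39 at 4-fold, 329 with no filter beyond 3 read pairs, 101 with a filter of 5 CPM, 134 with a pseudocount of 1, and 303 to 547 when the 50 or the 10 ng/ml BMP2 library was left out, which leaves 1 library against 1. Lower genes numbered 111 and 0 at those folds, 10 with a pseudocount of 1, 6 on deposited RPKM, and 47 to 238 with a BMP2 library left out. Library size alone gave 252 and 14, DESeq2 size factors 202 and 24. In the additive fit (573 higher with GSK126, 376 higher with BMP2), library size alone gave 1187 and 141, the 6 libraries of day 6 alone 41 and 4, leaving out both combinations 2464 and 2474 (the spread then comes from day 1 only), and DESeq2 793 and 684. Leaving out each library in turn gave 214 to 1151 and 99 to 1018: 233 to 247 and 99 to 109 with a library of day 1 left out, 214 and 121 without 10 ng/ml BMP2, 1139 and 917 without vehicle, 1140 and 1018 without GSK126, and 1151 and 1005 without 50 ng/ml BMP2 plus GSK126 on day 6. The cause was not tested. Of the 20 leading genes called in that fit, 11 (Abi3bp, Eln, Enpep, Frem1, H19, Iqgap2, Itih5, Mfap4, Ngfr, Ostn and Reps2) passed under every alternative that kept them, and all kept their sign. The alternatives refit the libraries that chose these genes, so this describes the processing and is no independent support. No paired analysis was possible because each condition has 1 library and the labels carry no replicate numbers. At 3 read pairs or fewer in a BMP2 library, folds are limited by depth.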
